A study of Pinctada imbricata with 5 samples.

Results

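The ubiquitin and proteasome genes of the pearl sac were described over the first weeks of pearl formation in a pearl oyster. They were chosen by annotation alone: a unigene, that is an assembled transcript, was taken when the name of the protein it matched best in the nr database contained the word proteasome, 26S protease, ubiquitin, cullin, F-box, kelch-like, SUMO or COP9. The rule gave 79 of the 19415 unigenes listed in the 5 libraries, or 1.48% of the 5341 unigenes that had any protein match. None had to be left out as a ribosomal protein. The match had an e-value of 1e-20 or less for 61 members and a weaker value for 18.

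The pearl sac is an epithelium of transplanted mantle that encloses an implanted nucleus and secretes the pearl on it. Tissue was collected 10, 15, 20, 30 and 60 days after implantation from animals aged 1.5 years, with no genotype or treatment other than the implantation given in the labels, and the number of animals behind a library is not stated. The labels name the species as Pinctada imbricata in the sample records and as Pinctada martensii in the title. Each day had 1 library, so there was no replicate and no test between days.

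Proteins are marked for destruction by the attachment of ubiquitin. An E1 enzyme activates ubiquitin, an E2 enzyme carries it and an E3 ligase joins it to the target, and deubiquitinases take it off again. The marked protein is unfolded by the 19S regulatory particle, whose base is a ring of ATPases, and is cut inside the 20S core, a barrel of alpha and beta rings. SUMO is a related modifier with its own enzymes, and the COP9 signalosome removes the modifier NEDD8 from the cullins that scaffold a large class of ligases.

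Expression was read as tags, short sequences that start at a CATG of the messenger RNA and were counted. The tags below stand for the 6 members whose level differed between days by the rule given further on. The level of a member adds up the copies of all tags of its unigene, so a sequence shown here need not account for all of it. Capitals mark the enzyme site that begins each tag. All of them came from the 3′-most such site of their unigene except the last, from the site next to it.
Unigene90760, proteasome subunit alpha type-5: CATGcaaataaataaggaaaa
Unigene88506, proteasome subunit beta type 2: CATGattaaaccagaaaatcc
Unigene91107, 26S protease regulatory subunit: CATGaatatttatgatcttga
Unigene46952, kelch-like 26 match: CATGaagacgccgaggtcaga
Unigene21358, SUMO-activating enzyme subunit 1: CATGaatatgcagaggaaatt
Unigene75762, 26S protease regulatory subunit 6B, 3′-most site: CATGcccaggaagaagtgaag
Unigene75762, 26S protease regulatory subunit 6B, next site: CATGgaggatctctatgtcaa

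The libraries held between 4700927 and 4784094 tags, of which 600848 to 1339346 were listed for unigenes. Levels are given as tags and as scaled TPM, the deposited TPM (tags relative to the library total) divided by a TMM scaling factor (0.878 to 1.16). They carry no correction for transcript length. Markers of the labelled tissue were present in all 5 libraries but at uneven levels. The 29 listed mantle epithelium markers (nacre, tyrosinase, Pif and mantle proteins) summed to 568, 89.5, 224, 897 and 82.9 scaled TPM in order of day. On day 15 tyrosinase-like protein 1 (Unigene1470), mantle gene 5 (Unigene39109) and mantle protein 10 (Unigene59335) were not listed, nor were they on days 20 and 60. Other mantle markers took other courses. Mantle gene 4 had 277, 308, 143, 0 and 0 tags in Unigene59776 and 79, 39, 139, 58 and 172 in Unigene75755. Mantle gene 1 (Unigene89281) had 6, 47, 450, 2 and 23. By the rule given further on, 7 of 10 mantle markers compared were lower on day 15 than on day 10 and none higher. Of all unigenes compared, 24% were lower (17.6% of those with a protein match). Markers not listed on day 15, such as Unigene1470, could be called lower only. The day 15 library also stood apart in its sperm and motile cilia markers, of which 28 of 33 were listed there against 5 to 8 on other days. These summed to 149 scaled TPM on day 15 and to between 6.24 and 14.7 on the other days, led by an axonemal dynein heavy chain (Unigene82585) with 16, 438, 18, 10 and 30 tags in order of day. The 3 hemocyte markers summed to 27.0 scaled TPM on day 15 and 35.2 on day 20, against 155 to 172 on days 10, 30 and 60. This sum was nearly all 1 unigene, allograft inflammatory factor 1 (Unigene89534), with 713, 144, 152, 711 and 843 tags in order of day. The other hemocyte markers were listed on day 15 alone. The 15 muscle markers stayed between 1.78 and 7.42, the 15 digestive gland markers between 5.81 and 26.5 and the 7 nervous markers between 0.901 and 11.8 scaled TPM. Every result below that rests on day 15 moves with these differences, and their part in it was not tested. In such bulk libraries fewer cells of a type and less RNA per cell cannot be told apart.

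Summed over all members, the ubiquitin and proteasome genes were highest on day 15 and had a smaller second maximum on day 60. Their tags summed to 984, 3654, 718, 634 and 1678 in order of day. In scaled TPM this was 219, 658, 167, 154 and 309. The sum was led by Unigene75762, Unigene90760 and Unigene91107, with 980, 928 and 674 of the 3654 tags of day 15. Not every role had its maximum there. The E3 and E4 ligases, SUMO pathway and deubiquitinases were highest on day 60, at 42.5, 18.9 and 14.7 scaled TPM against 30.3, 3.96 and 4.50 on day 15. The E1 group was highest on day 30 and the cullin group on day 20, each on few tags. The summed level was 3.00-fold higher on day 15 than on day 10 (95% interval 2.80 to 3.22), and 3.95-fold lower on day 20 than on day 15 (3.65 to 4.29). It was 2.01-fold higher on day 60 than on day 30 (1.83 to 2.20). Days 20 and 30 differed by a ratio of 0.923 (0.828 to 1.03). These intervals, like all below, are Clopper-Pearson intervals on counts and cover counting error only, since nothing measures the spread between oysters.

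More members were seen at all on day 15. Of the 79, the numbers listed were 26, 57, 25, 27 and 40 in order of day, which is 32.9%, 72.2%, 31.6%, 34.2% and 50.6% of them. Of all unigenes, 49.4%, 60.1%, 45.4%, 47.6% and 53.9% were listed. Among unigenes under 10 scaled TPM it was 25.7%, 68.6%, 22.9%, 27.1% and 45.7% of the members. Of those with a protein match it was 34.2%, 63.8%, 32.3%, 30% and 43.2%, so the day 15 maximum in listing was not particular to the members. Only 12 members were listed on every day, and 41 on a single day, 21 of them on day 15. That share of 51.2% was close to the 52.7% of all matched unigenes listed on a single day. The lowest tag count that is listed is 2, and 32 members had no more than 3 tags over all days together, so for these little more than presence could be read. A level of 10 scaled TPM, which is 41.3 to 55.5 tags, was reached by 9 members, and 1 scaled TPM by 30.

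**Figure D1:**
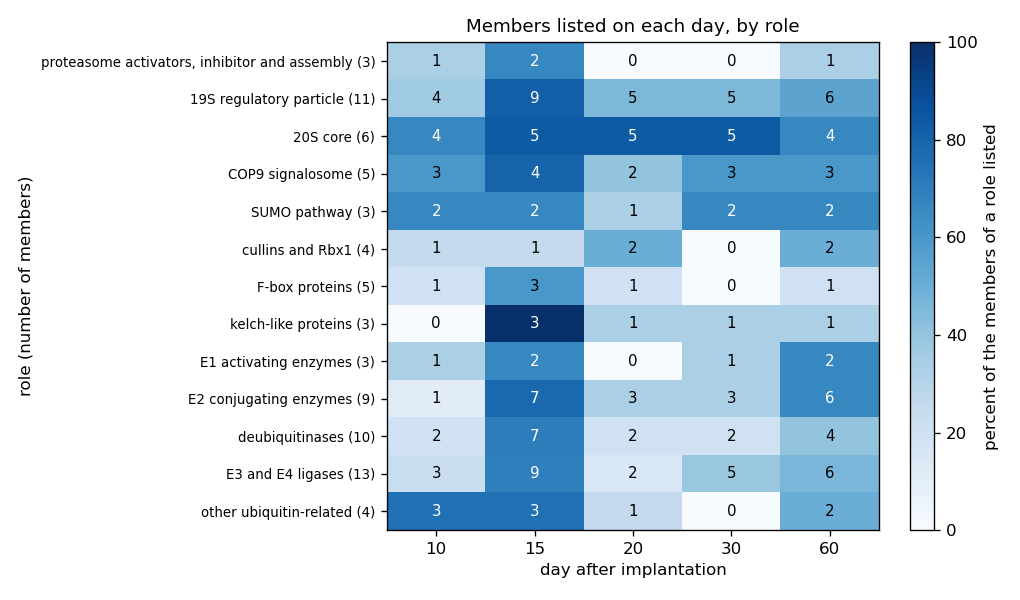
Number of members listed on each day (columns) in each role (lines, with the number of members in parentheses). The colour gives the percentage of the role that was listed. Day 15 has the most listed members among the 19S subunits (9 of 11), E2 enzymes (7 of 9), deubiquitinases (7 of 10) and E3 and E4 ligases (9 of 13), and the 20S core is evenly listed at 4 or 5 of 6.

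Differences between days were called with a fixed rule. A member was compared when the higher library had at least 10 scaled TPM, and was called higher or lower when the whole 95% interval of the ratio lay beyond 2-fold. A unigene that reached 10 scaled TPM on only 1 day of a pair could be called in 1 direction only, and this held for the background too. The kelch-like match was such a case from day 10 to 15. From day 15 to 20 the kelch-like match and the beta 2 subunit were. From day 10 to day 15, 4 of 7 members compared were higher and none lower, where 44.3% of all unigenes compared were called in either direction and 20.3% were higher. The share of higher calls was 31.1% among unigenes with a protein match, which as a class stood higher on day 15. The median log2 ratio was 1.32 over the 7 members, -0.02 over all unigenes compared and 0.55 over the matched ones. From day 15 to day 20, 5 of 7 members were lower and none higher, where 52.4% of all unigenes were called and 27.1% were lower (38.6% of the matched). The medians were -1.86, -0.04 and -0.89. Both comparisons use the day 15 library, so they are not independent of each other. From day 20 to day 30, 1 of 5 members was lower and none higher (38.9% of all unigenes called, median log2 ratio -0.32 against -0.13).

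From day 30 to day 60, 4 of 8 members were higher and none lower, where 30.9% of all unigenes were called and 15.5% were higher (17.5% of the matched). Subunit 6B, the beta 2 subunit and the SUMO-activating enzyme subunit, all called, were under 10 scaled TPM on day 30. So was Unigene92790, which was not called. These could be called higher only, so the lack of lower calls was in part fixed by the rule. Among members at or over that level on both days, only the alpha 5 subunit was called. The median log2 ratio was 1.26 over the members and 0.09 over all unigenes. This comparison does not use the day 15 library, but the mantle epithelium markers moved in it. Of these, 4 of 6 compared were lower on day 60 and none higher, where 15.3% of all unigenes were lower (11.9% of the matched). Markers not listed on day 60 could be called lower only. The median log2 ratio of the markers was -3.11, and their part in the result was not tested. Day 60 set against day 10 gave 1 member higher and 1 lower of 8, with 33.4% of all unigenes called. Day 30 set against day 10 gave 1 of 6 lower, with 21.6% called, so in these last pairs the members' share was under the background.

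A peak was read where a member was called higher on a day than on each of the other 4 days. Day 15 was such a peak for 4 of the 9 members that reached 10 scaled TPM: the alpha 5, 6B and 26S regulatory subunits and the kelch-like match. The same was true of 9.24% of all unigenes at that level and of 15.3% of the matched ones. No member peaked on another day. The highest level fell on day 15 for 5 of the 9 and on day 60 for the other 4, where 26.3% of all unigenes at that level (38.1% of the matched) were highest on day 15 and 21.3% (19.8%) on day 60. The kelch-like match reached 10 scaled TPM on day 15 alone, so it could peak on no other day. The SUMO-activating enzyme subunit and Unigene92790 reached it on day 60 alone. The minimum level thus fixed the highest day of these members, as it did for such unigenes in the background.

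**Figure D2:**
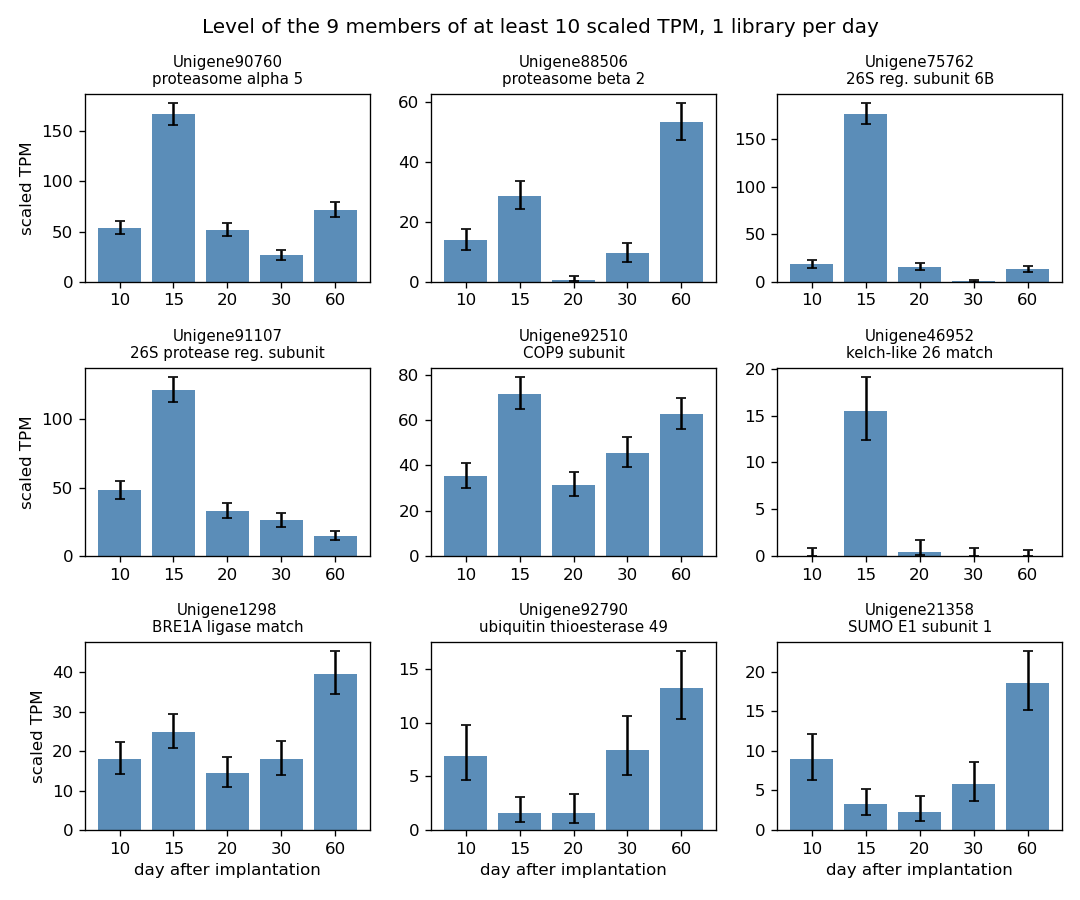
Level in scaled TPM (vertical axes, each with its own scale from 0) by day after implantation for the 9 members that reached 10 scaled TPM. Bars show the 1 library of each day and error bars the 95% interval of the count. The alpha 5 subunit stands at 167 on day 15 and 71.9 on day 60, while the beta 2 subunit is highest on day 60 at 53.1 and nearly absent on day 20 at 0.696.

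The 20S core was represented by 6 unigenes, of which 2 reached 10 scaled TPM. The alpha 5 subunit (Unigene90760), part of the outer ring that gates the barrel, had 241, 928, 223, 108 and 391 tags in order of day, or 53.7, 167, 51.7, 26.2 and 71.9 scaled TPM. Day 15 stood above all other days, and on all tags day 30 was the lowest. The level rose 3.11-fold from day 10 to 15 (2.70 to 3.60), fell 3.23-fold to day 20 (2.79 to 3.76) and rose 2.75-fold from day 30 to 60 (2.22 to 3.43). Of its 241 tags on day 10, 140 were a variant described further on. On the most copied tag alone (99, 924, 221, 108 and 389 copies) day 10 was the lowest and the rise to day 15 was 7.54-fold (6.12 to 9.37).

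The beta 2 subunit (Unigene88506), of the inner ring, followed another course. Its tags numbered 62, 159, 3, 39 and 289 in order of day, or 13.8, 28.6, 0.696, 9.45 and 53.1 scaled TPM. Here day 60 was the highest and day 20 close to unlisted. It fell 41.2-fold from day 15 to 20, with a wide interval (13.8 to 202) since 3 tags were left, rose 5.62-fold from day 30 to 60 (4.02 to 8.07), and was 3.84-fold higher on day 60 than on day 10 (2.91 to 5.14). Its ratio of 2.07 between days 15 and 10 (1.54 to 2.83) did not clear the 2-fold limit. Between days 20 and 30 it had a ratio of 13.6 (4.32 to 68.7) and was under the minimum level in both.

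The other 4 core unigenes were under 10 scaled TPM on all days. They included a beta subunit annotated only as regulatory (Unigene77721, 5, 32, 8, 2 and 11 tags), the beta 7 subunit (Unigene90800, 3, 9, 4, 2 and 4) and the N3 subunit (Unigene91391, 7 tags on day 15 and 2 on day 20). Each of these 3 had its largest count on day 15, and no call could be made from any of them. The alpha 3 subunit (Unigene55534) was listed on day 30 alone, with 4 tags. The sum of the 4 was 8, 48, 14, 8 and 15 tags, a ratio of 4.85 between days 15 and 10 (2.27 to 11.9).

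The 19S regulatory particle had 11 unigenes, and its 2 abundant members belonged to different courses late in the series. Subunit 6B (Unigene75762), an ATPase of the ring that unfolds the target, had 83, 980, 68, 3 and 70 tags. In scaled TPM this was 18.5, 177, 15.8, 0.727 and 12.9. Day 15 stood far above the rest and day 30 was close to unlisted. The rise from day 10 to 15 was 9.54-fold (7.62 to 12.1) and the fall to day 20 was 11.2-fold (8.75 to 14.5). On the tag of the 3′-most site alone the rise was larger, 16.8-fold (12.6 to 23.1), and the day 20 to 15 ratio was 0.0328 (0.0211 to 0.0488). On 3 tags, day 30 was 21.7-fold below day 20 (7.12 to 108) and 25.5-fold below day 10 (8.42 to 126), and day 60 was 17.7-fold above day 30 (5.82 to 87.9).

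A regulatory subunit whose match gives no number (Unigene91107) had 215, 674, 141, 107 and 80 tags, or 47.9, 121, 32.7, 25.9 and 14.7 scaled TPM. It was highest on day 15 and, unlike the core subunits, lowest on day 60. It rose 2.53-fold from day 10 to 15 (2.17 to 2.97) and fell 3.71-fold to day 20 (3.09 to 4.49). By day 60 it was 3.26-fold lower than on day 10 (2.51 to 4.27), the only 1 of the 8 members compared that was called lower between those days.

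The remaining 9 regulatory unigenes were low. Non-ATPase subunit 12 (Unigene87016), of the lid, had 13, 21, 17, 4 and 11 tags, and the ATPase Rpt4 (Unigene92012) had 6, 25, 6, 5 and 6. The day 15 to 10 ratio of Rpt4 was 3.37 with an interval of 1.35 to 10.0. The non-ATPase subunits 1, 2, 10 and 13 were listed on a single day, at 2 to 5 tags. A pair of unigenes shared the match p44.5 (Unigene73762 and Unigene89855), and whether they are pieces of the same transcript was not tested. The 9 summed to 19, 65, 26, 11 and 22 tags, a ratio of 2.76 between days 15 and 10 (1.64 to 4.88).

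**Figure D3:**
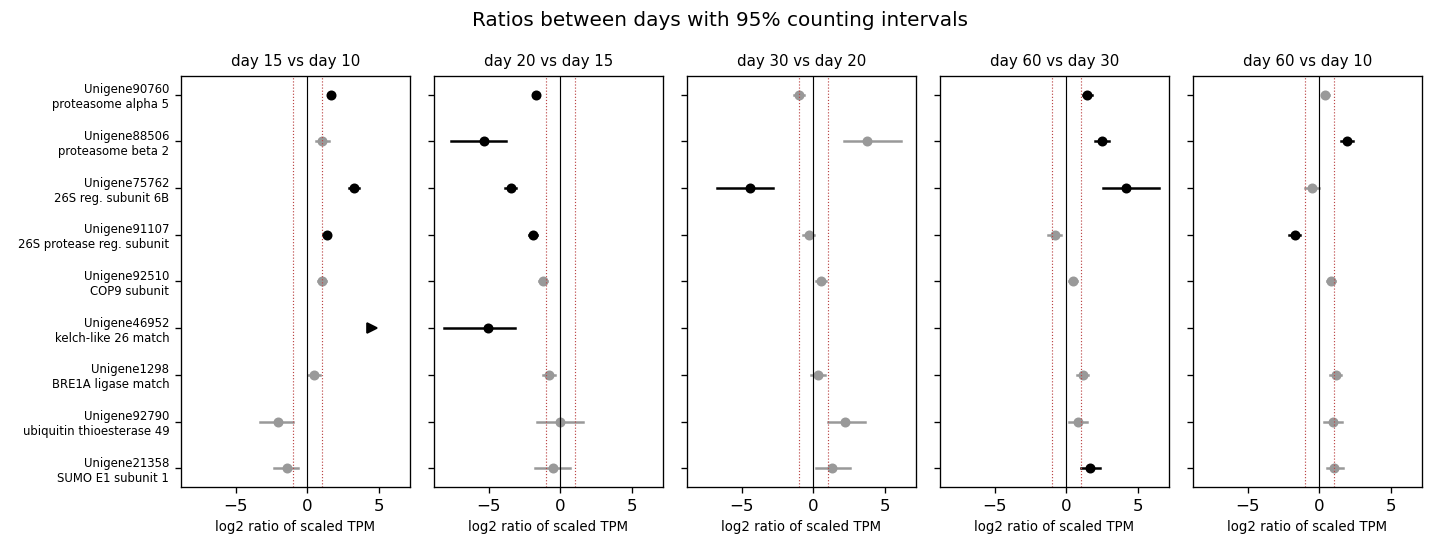
Ratio of scaled TPM between days on a log2 axis, with 95% counting intervals, for the same 9 members (lines) in 5 comparisons (panels). Dotted lines mark 2-fold, black symbols are called, grey ones are not, and the triangle is the bound of at least 23.2-fold for the kelch-like match. No point is drawn where both counts are at or under 3 tags. Called points lie to the right for days 15 against 10 and 60 against 30, and to the left for days 20 against 15.

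Since subunits of the complex are counted in the same library, the ratio of their tags does not depend on the scaling. The alpha 5 subunit had 1.12, 1.38 and 1.58 tags per tag of the unnumbered regulatory subunit on days 10, 15 and 20. The step was 1.23-fold between days 10 and 15 (0.991 to 1.52) and 1.15-fold between days 15 and 20 (0.905 to 1.46), each within counting error, but 1.41-fold between days 10 and 20 (1.06 to 1.89), a pair added after seeing the data. On day 60 the ratio was 4.89, 4.36-fold above day 10 (3.19 to 5.98). With the most copied alpha 5 tag alone it was 0.461 on day 10, and the changes to days 15 and 60 were 2.98-fold (2.29 to 3.89) and 10.6-fold (7.43 to 15.0). The beta 2 subunit went further, from 0.288 tags per tag of the regulatory subunit on day 10 to 3.61 on day 60, a change of 12.5-fold (8.46 to 18.6). Subunit 6B gained on the alpha 5 subunit by 3.07-fold from day 10 to 15 (2.34 to 4.05). The day 10 totals behind this ratio include 140 copies of the alpha 5 variant and 36 of the next site of subunit 6B. It was not computed on the most copied tags alone, so its dependence on the choice of tag was not tested. The abundant proteasome subunits therefore did not hold a fixed proportion over the course in these libraries.

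The proteasome activator, inhibitor and assembly group had 3 members and at most 10 tags on a day. Assembly chaperone 3 (Unigene75254), which helps build the alpha ring, had 7 tags on day 15 and 2 on day 60. The activator unigene was listed on day 15 alone and the inhibitor PI31 on day 10 alone, with 3 and 2 tags. The group summed to 10 tags on day 15 and to none on day 20, where the interval allows a ratio of up to 0.574, and no member could be called alone.

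The word rule could miss subunits whose best match is an unnamed protein, so gene ontology terms were searched as well. This second list was made after values had been seen. A proteasome component term was carried by 10 members and by 14 unigenes outside the rule. The 14 summed to 38, 263, 64, 40 and 108 tags, with day 15 again the highest and day 60 next. The ratio was 5.59 between days 15 and 10 (3.97 to 8.08), 3.19-fold lower on day 20 (2.42 to 4.26) and 2.05 between days 60 and 30 (1.41 to 3.02). The leading unigene, annotated to the proteasome core complex (Unigene91476), had 9, 96, 5, 14 and 29 tags. It rose 8.61-fold to day 15 (4.35 to 19.4) and then fell 14.9-fold (6.17 to 47.0). Next to it stood Unigene92257 with 11, 41, 12, 12 and 44 tags and Unigene90346 with 2, 37, 15, 3 and 3.

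**Figure D4:**
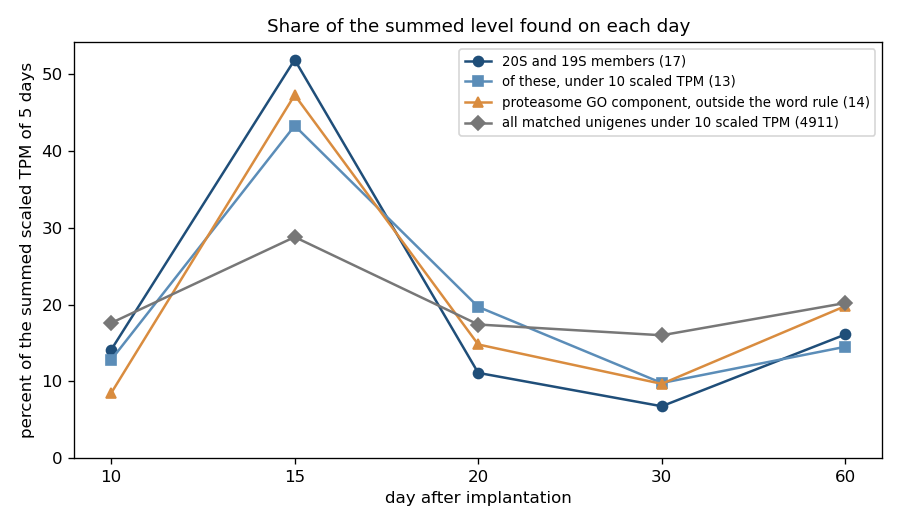
Percentage of the scaled TPM summed over the 5 days that falls on each day (vertical axis, from 0), for 4 sets of unigenes with their numbers in the legend; the days are drawn at equal spacing. The 17 core and 19S members have 51.9% of their level on day 15, their 13 low members 43.3% and the unigenes found by gene ontology 47.3%, while all matched unigenes under 10 scaled TPM have 28.8%. The 17 members and the gene ontology set also hold unigenes over that level. Only the 13 low members are therefore set against the matched unigenes at a like level.

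The day 15 maximum was also seen where no single member could be called. The 70 members under 10 scaled TPM had 73, 265, 67, 61 and 118 tags in all. Their sum was 2.93-fold higher on day 15 than on day 10 (2.26 to 3.85). The 4911 unigenes with a protein match under the same level gave 1.64 (1.60 to 1.68), whose interval lies below that of the members. From day 15 to 20 the members' sum was 3.07-fold lower (2.34 to 4.08), and that of the matched unigenes 1.65-fold lower (1.61 to 1.69). From day 30 to 60 the ratio was 1.47 for the members (1.07 to 2.03) and 1.27 for the matched unigenes (1.23 to 1.30), which lies within the members' interval. Among the 13 low core and 19S members the ratio between days 15 and 10 was 3.38 (2.21 to 5.35). The intervals treat tags as independent, and the sums are of members chosen by annotation.

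The COP9 signalosome had 5 unigenes, led by a cop9 complex subunit (Unigene92510) with 158, 397, 135, 187 and 341 tags. In scaled TPM this was 35.2, 71.5, 31.3, 45.3 and 62.7. It was highest on days 15 and 60, with less difference between days than the proteasome subunits. The ratio was 2.03 between days 15 and 10 (1.68 to 2.46) and 1.78 between days 60 and 10 (1.47 to 2.16), and none of the 6 comparisons cleared 2-fold. The other signalosome unigenes had at most 9 tags on a day. Unigene89763 (4, 9, 3, 5 and 0 tags) and Unigene86248 (7, 3, 0, 2 and 4) also shared a protein match.

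The SUMO pathway had 3 unigenes, of which 1 could be followed; it was low on days 15 and 20 and highest on day 60. Subunit 1 of the SUMO-activating enzyme (Unigene21358), a partner in the enzyme that starts SUMO attachment, had 40, 18, 10, 24 and 101 tags, or 8.92, 3.24, 2.32, 5.81 and 18.6 scaled TPM. Its lowest days were those at and just after the proteasome maximum. It rose 3.19-fold from day 30 to 60 (2.03 to 5.21), a call whose lower bound lies just above the limit. The sentrin-specific protease match (Unigene88465) had 2 to 4 tags on days 10, 15 and 30, and a SUMO ligase match (Unigene83800) had 2 tags on day 60. Together these last had 2, 4, 0, 3 and 2 tags, too few to follow.

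Among the ligases, the 13 E3 and E4 unigenes held 1 abundant member, a weak match (e-value 4.91e-13) to BRE1A, the ligase that attaches ubiquitin to histone H2B in animals. This Unigene1298 had 81, 138, 62, 74 and 216 tags, or 18.1, 24.9, 14.4, 17.9 and 39.7 scaled TPM. Day 60 was the highest, day 15 came next and day 20 was the lowest. The ratio was 2.22 between days 60 and 30 (1.69 to 2.93) and 2.20 between days 60 and 10 (1.70 to 2.87), neither past the limit. The other 12 ligase unigenes summed to 11, 30, 2, 9 and 15 tags.

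Kelch-like proteins bring targets to cullin 3 ligases. The kelch-like 26 match (Unigene46952, e-value 8.14e-08) was unlisted on day 10, had 86 tags on day 15 and 2 on day 20, and was unlisted on days 30 and 60. On day 15 this was 15.5 scaled TPM, at least 23.2-fold above day 10 taken at a floor of 3 tags, and 33.4-fold above day 20 (8.97 to 280). Each of the other 8 members that reached 10 scaled TPM was listed on every day. The kelch-like 4 match (Unigene90344) was listed on day 15 alone, with 7 tags, and the kelch-like 2 match (Unigene18345) had 2, 4 and 6 tags on days 15, 30 and 60.

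The cullins and F-box proteins, which scaffold ligases and choose their targets, were near the limit of detection. The 4 cullin and Rbx1 unigenes had at most 5 tags together on a day. Of the 5 F-box unigenes, F-box only 39 (Unigene92576) had 12 tags and FBXW7 (Unigene92874) 6, both on day 15 alone. With the minimum lowered to 1 scaled TPM the first of these was called higher on day 15 than on days 10 and 20. Members named in this and the following paragraph, and the low members above that are not in the rule for named genes, were picked by role after their values had been seen.

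The unigenes annotated as E1 and E2 enzymes were also low. The 3 E1 unigenes had at most 9 tags together on a day. Unigene8328 and Unigene15589 were weak matches (e-values 9.49e-08 and 5.66e-09) to E1C, the NEDD8-activating enzyme subunit. The former had 3, 0, 0, 9 and 4 tags, and the latter 2 on day 15 alone. Unigene86214 matched E1b and had 2 tags on day 15 and 2 on day 60. Which modifier it serves was not tested, and none of the 3 was shown to be the E1 of ubiquitin itself. The 9 E2 unigenes summed to 2, 27, 8, 7 and 23 tags, highest on days 15 and 60. E2C (Unigene89768), which works with the ligase that drives exit from mitosis, had 0, 6, 3, 3 and 6 tags. E2S (Unigene91172), which extends the chains made by that ligase, had 3 on day 15 and 7 on day 60, and E2T (Unigene80950), of the DNA crosslink repair pathway, had 8 and 3 on those days. None of the 3 could be called at the 10 scaled TPM minimum.

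The abundant member of the 10 deubiquitinases was low at the day 15 maximum of the proteasome, while the sum of the others was highest there. Ubiquitin thioesterase 49 (Unigene92790), an enzyme that removes ubiquitin, had 31, 9, 7, 31 and 72 tags, or 6.91, 1.62, 1.62, 7.51 and 13.2 scaled TPM. Days 15 and 20 were the lowest and day 60 the highest, so its course was close to that of the SUMO-activating enzyme. It was 4.27-fold lower on day 15 than on day 10 (1.98 to 10.2), with both days under the minimum level. The ratio between days 60 and 10 was 1.91 (1.24 to 3.02). The other 9 deubiquitinase unigenes summed to 2, 16, 5, 3 and 8 tags. They were grouped by annotation, and the 5 tags of day 20 were all of a match to a protease specific for the modifier Ufm1 (Unigene41695).

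With the minimum lowered to 1 scaled TPM, 30 members could be followed. Of these, 18 (60%) were highest on day 15 and 7 on day 60, where 26.4% of all unigenes and 39.8% of the matched ones at that level were highest on day 15. Many of the 18, among them F-box only 39, assembly chaperone 3 and the kelch-like 4 match, reached 1 scaled TPM on day 15 alone. The highest day of such members was fixed by the minimum itself, and this held for the background too. Calls then numbered 5 higher and none lower of 26 from day 10 to 15 (25.2% of all unigenes called in either direction), and 6 lower and none higher of 25 from day 15 to 20 (27.7%). Of these calls, 4 of the 5 and 5 of the 6 were of members at or over 10 scaled TPM. The share called, 19.2% and 24%, was under the either-direction background in both. In the direction of the members' calls alone, 11% of all unigenes (15.9% of the matched) were higher on day 15 than on day 10. From day 15 to 20, 14.4% (17.5%) were lower.

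Some members carried more than 1 kind of tag, and in 2 abundant subunits the mix differed between days. On day 10 the alpha 5 subunit had a second tag at the same site that differed by A14G, counted from 1 at the first base of the tag, with the differing base in capitals in the lines below.
Unigene90760, tag found on all days: catgcaaataaatAaggaaaa
Unigene90760, second tag of day 10: catgcaaataaatGaggaaaa

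The second tag made up 140 of 241 copies at that site on day 10 (58.1%, 51.6 to 64.4), and the first had 99. It was not listed on the other days: 0 of 926 copies (day 15) allows a share of up to 0.324%, 0 of 223 (day 20) up to 1.35%, 0 of 108 (day 30) up to 2.78% and 0 of 389 (day 60) up to 0.771%. A second tag 1 base away with at least 20% of the copies was seen in 13.3% of the 1136 unigenes with 50 or more tags at a site on day 10, and in 8.59% to 10.9% on the other days. Counting the most copied tag alone, the ratio between days 60 and 10 was 3.24 (2.59 to 4.08) and past the limit, where all tags gave 1.34 (1.14 to 1.58). The ratio between days 30 and 10 was 1.19 (0.894 to 1.57) on that tag and 0.487 (0.384 to 0.613) on all tags, so its direction turned.

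Subunit 6B used its next CATG site on 2 days. That tag had 36 of 83 copies on day 10 (43.4%, 32.5 to 54.7) and 43 of 68 on day 20 (63.2%, 50.7 to 74.6). On day 15 it had 0 of 980, which allows up to 0.306%, and on day 60 it had 0 of 70, which allows up to 4.29%. The tag of the 3′-most site had 47, 978, 25, 3 and 70 copies in order of day, so the maximum on day 15 lay in that tag. On that site alone the fall from day 20 to 30 was under the minimum level, and the ratio between days 60 and 10 was 1.23 (0.837 to 1.82), where all tags gave 0.695 (0.499 to 0.967). The BRE1A match used other sites at a steadier rate, 13.8% to 25.8% of its tags on each day.

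**Figure D5:**
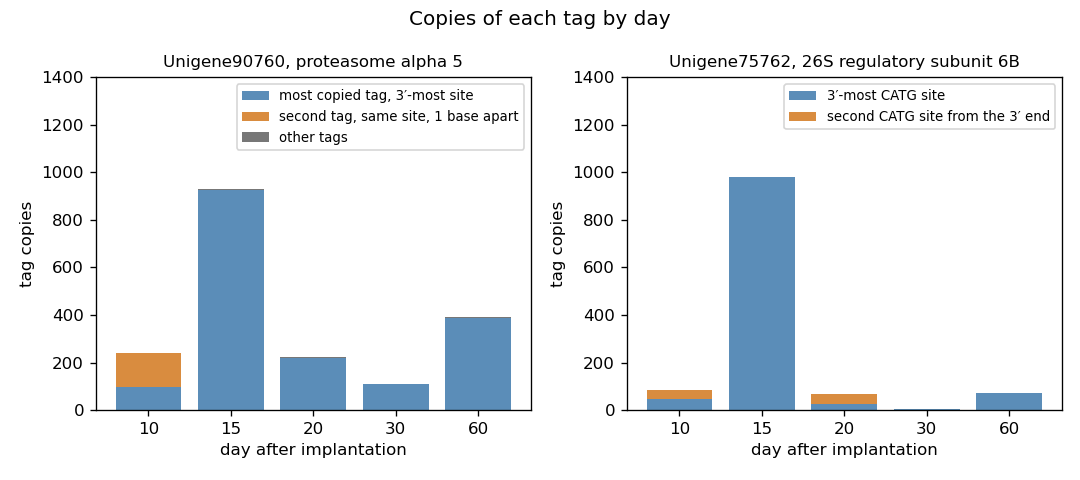
Copies of each kind of tag (vertical axis, tag count from 0) by day after implantation for the alpha 5 subunit (left) and subunit 6B (right). Colours split the tags by sequence or CATG site. The variant tag of the alpha 5 subunit appears on day 10 with 140 copies, and the next site of subunit 6B on days 10 and 20 with 36 and 43.

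Other genes of the pathway were taken from a list of names outside the rule (chaperones, RING finger and tripartite motif proteins, SKP1, NEDD8, valosin-containing protein, autophagy and related terms), which matched 51 unigenes. At a minimum of 1 scaled TPM, 6 of 16 were higher and none lower from day 10 to 15 (25.2% of all unigenes called), and 6 of 18 were lower and 1 higher from day 15 to 20 (27.7% called). From day 30 to 60, 1 of 14 was higher and none lower, with 17.4% of all unigenes called at that minimum. Tripartite motif protein 2 (Unigene91405) had 32, 27, 55, 23 and 76 tags and cleared the limit in no comparison. SKP1 (Unigene68414), the adaptor between cullin and F-box protein, had 3, 17, 16, 4 and 10 tags. Valosin-containing protein (Unigene81740), the ATPase that pulls marked proteins out of membranes and complexes, had 0, 11, 2, 0 and 35 tags, at least 8.85-fold higher on day 60 than on day 30 taken at 3 tags. No unigene matched von Hippel-Lindau or sequestosome.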

How the data were processed

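Total RNA was extracted with Trizol from pearl sac tissue, per the labels' protocols. The labels also name a TruSeq RNA kit, while every listed tag is 21 bases long and begins with CATG, so the data were handled as counts of tags. The deposited count of a unigene adds up its tag copies, with no normalization, per the file headers and the values. The deposited TPM is that count relative to a library total, with no length correction. Aligner, assembly and mismatch setting: not given in the sources used here. No genome was used.

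The library total was recovered as count over TPM in unigenes of at least 5000 tags, and scaled with TMM over the 5 libraries (edgeR 4.0.16, R 4.3.3). DESeq2 1.42.0 size factors were an alternative. Ratios had Clopper-Pearson 95% intervals conditional on the 2 counts (Python 3.11.15, numpy 2.4.6, scipy 1.17.1). Figures used matplotlib 3.10.9. The interval rule was tested on simulated data. Each day was compared with the one before, and days 30 and 60 with day 10, 6 comparisons in all. Medians used log2 of scaled TPM plus 1. A unigene not listed was set to a floor of 3 tags for a fold, and 3 tags of the total gave the upper limit of a share of 0. Median ratios took unlisted values as 0 plus the pseudocount.

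The rule for named genes took each member called in any comparison (6), each proteasome, SUMO, cullin or COP9 member of at least 1 scaled TPM (14) and the 10 of highest mean level, 17 in all; the other 62 are given by counts and ranges, with examples. The members and lists were chosen with earlier results of these data known. Alternatives were other scalings, minimum levels, fold limits, tag choices, member rules and pseudocounts.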

Additional observations from a re-analysis of the deposited data

How the results depend on the processing

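No paired analysis was possible because each day had 1 library, and for the same reason no replicate could be left out. No called result changed direction under any alternative run. Uncalled ratios of the alpha 5 subunit (day 30 against 10, most copied tag, 1.19) and of subunit 6B (day 60 against 10, 3′-most site, 1.23) turned from below to above 1, and the BRE1A match (day 30 against 10) crossed 1 within its counting interval in 3 settings. The summed level of all members moved past its counting interval in these settings. With deposited totals and no TMM factor, the ratios were 3.68 (day 15 against 10), 0.196 (20 against 15), 2.62 (60 against 30) and 1.70 (60 against 10), while all log2 ratios shifted by 0.29, -0.37, 0.39 and 0.28. With DESeq2 size factors the first was 3.30. With the words proteasome, 26S protease and ubiquitin alone, the ratios were 3.27, 0.233, 0.762 (30 against 20), 2.26 (60 against 30) and 0.579 (30 against 10); fewer members enter.

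Counts of members called moved by over 1.5 times as follows. From day 20 to 30 the count of 1 became 3 at a minimum of 1 scaled TPM, 2 at a fold limit of 1.5, and 0 at a minimum of 20, with the 3′-most site alone or with the most copied tag alone, the last chosen after seeing the data. From day 30 to 60 the 4 became 2, and for day 30 against 10 the 1 became 0, at a minimum of 20; the latter became 2 at a fold limit of 1.5. Of 41 comparisons of single members, 17 were called. Leaving that crossing aside, direction and call were kept in 41 at a minimum of 1, 40 with DESeq2 size factors, 38 with the 3′-most site, 37 with deposited totals, 36 with the most copied tag, 35 at a minimum of 20 and 34 at a fold limit of 1.5. The SUMO-activating enzyme subunit lost its call from day 30 to 60 with DESeq2 size factors (lower bound 1.96), the 3′-most site (1.97) and a minimum of 20. With deposited totals, the COP9 subunit was called on days 15 against 10 and 20 against 15, and the BRE1A match on day 60 against 30 and 10. Depth limits all members of under about 41.3 tags, and 1 library per day leaves variation between oysters unmeasured.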

Other observations

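Chaperones, which fold proteins or pass them to the proteasome, made up 4 of the 5 other pathway genes that reached 10 scaled TPM, and they did not share a single course. They were picked from the fixed name list after their values had been seen. Heat shock protein 90 (Unigene83137) had 7, 67, 10, 4 and 16 tags in order of day, 7.73-fold higher on day 15 than on day 10 (3.55 to 20.0) and 5.21-fold lower on day 20 (2.66 to 11.4). The mitochondrial 60 kDa heat shock protein (Unigene89867) had 5, 73, 11, 4 and 14 tags, 11.8-fold higher on day 15 (4.83 to 37.4). Chaperonin 10 (Unigene20937), its partner, had 60, 184, 38, 31 and 80 tags, and fell 3.76-fold from day 15 to 20 (2.64 to 5.49). Its rise of 2.48-fold to day 15 (1.84 to 3.37) was not past the limit. These 3 had the day 15 maximum of the proteasome subunits. A 70 kDa heat shock protein (Unigene65737) had 0, 3, 109, 0 and 3 tags, so its maximum lay on day 20, 46.8-fold above day 15 (15.6 to 230) and at least 34.8-fold above day 30 taken at 3 tags. Further entries of these families were under 10 scaled TPM. Another heat shock protein 60 (Unigene91994) had 10, 21, 3, 6 and 16 tags, a day 15 to 10 ratio of 1.70 (0.765 to 4.03). Another heat shock protein 90 (Unigene88650) had 0, 6, 6, 0 and 0, and another heat shock protein 70 (Unigene50476) 7, 8, 15, 6 and 9.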
